A study of Mus musculus with 11 samples.

Results

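Toll-like receptor and nucleic acid sensing genes were followed in NIH-3T3 fibroblasts given a G-rich DNA oligonucleotide. The set held 10 genes chosen by name, namely the receptors Tlr2, Tlr3 and Tlr4, the adaptors Myd88, Ticam1 and Mavs, the kinases Irak1 and Tbk1, the transcription factor Irf3 and the nuclease Trex1. Of these, 9 had a row among the 15022 genes of the count table, and all 9 were among the 13040 genes that passed the filter on low counts and were tested. Trex1 was not analysed here. NIH-3T3 is an established line of mouse embryonic fibroblasts, labelled wild type, and it was grown in DMEM with serum and antibiotics. AS1411, an oligonucleotide known for binding the protein nucleolin, was given at 10 µM for 24 h in 3 libraries and for 48 h in 2 libraries. A control DNA oligonucleotide was given at the same 10 µM for 24 h in 3 libraries and for 48 h in 3 libraries. Every library therefore came from cells of the same line that had received an oligonucleotide, and cells without one were not analysed here. Whether replicates came from separate cultures is not stated in the labels. The p-values therefore set group differences only against the spread among these samples, which may be technical.

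Toll-like receptors are membrane proteins that bind microbial products or products of damaged cells, and each recruits an adaptor through a shared TIR domain. Myd88 serves TLR2 and TLR4 and hands the signal to IRAK kinases, whereas Ticam1 (also called TRIF) serves TLR3 and TLR4 and reaches Tbk1, which phosphorylates Irf3. RNA in the cytosol is sensed by RIG-I-like helicases that act through Mavs on the outer mitochondrial membrane, and DNA in the cytosol is sensed by cGAS, which acts through STING. Both routes also meet at Tbk1 and Irf3, and most of these routes activate NF-kB as well. Fibroblasts are known to express several of these receptors and adaptors.

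The sequences of both oligonucleotides are shown because every comparison is between cells given one or the other. Capitals mark GG pairs in AS1411 and CC pairs in the control.
AS1411: GGtGGtGGtGGttgtGGtGGtGGtGG
control oligo: CCtCCtCCtCCttctCCtCCtCCtCC
Each was 26 nt long, with 17 G and 9 T in AS1411 and 17 C and 9 T in the control. At all 26 positions the control carried C where AS1411 carried G, or T where it carried T. Neither held a CG dinucleotide, the element that TLR9 is known to recognise when it is unmethylated, and each held 8 pairs of adjacent G or adjacent C. Tlr9 itself was not analysed here.

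Promoter sequences are shown for Tlr2, Tlr3, Myd88 and Ticam1, whose differences between treatments are described further on. They are the 250 bases before the RefSeq start of each gene, on GRCm38.p6, printed on the gene's own strand, which was the minus strand for all 4. Capitals mark matches to the kB motif, the general form bound by NF-kB, or to the interferon-stimulated response element searched as GAAA, any 2 bases and GAAA.
Tlr2 (chr3:83841609-83841858): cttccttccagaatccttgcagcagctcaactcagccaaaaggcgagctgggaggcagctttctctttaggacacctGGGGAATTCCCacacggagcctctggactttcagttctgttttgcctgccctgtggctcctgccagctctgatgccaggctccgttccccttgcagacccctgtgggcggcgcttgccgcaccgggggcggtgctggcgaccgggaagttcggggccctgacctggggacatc
Tlr3 (chr8:45410381-45410630): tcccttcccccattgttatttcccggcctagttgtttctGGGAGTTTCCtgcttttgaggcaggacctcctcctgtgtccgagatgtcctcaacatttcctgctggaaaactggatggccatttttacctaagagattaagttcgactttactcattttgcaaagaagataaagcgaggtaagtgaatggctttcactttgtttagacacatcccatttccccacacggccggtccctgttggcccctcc
Myd88 (chr9:119340019-119340268): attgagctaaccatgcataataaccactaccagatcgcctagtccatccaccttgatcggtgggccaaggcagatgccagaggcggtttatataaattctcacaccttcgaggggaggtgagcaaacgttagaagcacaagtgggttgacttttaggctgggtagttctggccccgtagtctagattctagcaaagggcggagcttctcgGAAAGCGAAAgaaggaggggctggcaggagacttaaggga
Ticam1 (chr17:56276768-56277017): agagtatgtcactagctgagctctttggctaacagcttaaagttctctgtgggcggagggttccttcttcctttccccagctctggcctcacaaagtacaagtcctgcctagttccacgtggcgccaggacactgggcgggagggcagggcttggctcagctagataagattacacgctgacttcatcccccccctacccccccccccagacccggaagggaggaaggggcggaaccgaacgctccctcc
The gene spans given further on are from GENCODE M21 and take the outermost transcript, so the RefSeq start lay 159 bases inside the span for Tlr2, 700 for Tlr3, 1393 for Myd88 and 19 for Ticam1. The nearest M21 transcript start of the same gene was 159 bases from the RefSeq start for Tlr2, 0 for Tlr3, 16 for Myd88 and 19 for Ticam1. Part or all of these windows therefore lies within the M21 gene span, and motif positions are counted from the RefSeq start only. Both strands were searched. The Tlr2 window held 2 overlapping kB matches, whose first bases lay at -173 and -172 from that start, and the Tlr3 window held 1 at -211. The Myd88 window held 1 match to the interferon-stimulated response element, at -40, and no kB match. The Ticam1 window held neither. Among the other genes, Irak1 had a kB match at -18 and Trex1 had one at -246 in 1 of its 2 entries, while the Mavs, Irf3 and Tbk1 windows held neither motif. Taking 1 window per gene, 4 of the 9 members with an entry held a kB match and 1 held the response element. Of the 27025 mouse promoter windows of this length, 7.01% held a kB match and 3.04% held the response element. Matches of this kind thus also occur outside the set, and the difference in shares was not tested. Promoter entries were found for 9 of the 10 genes, and Tlr4 is named only. A match describes letters in a window and was not tied to binding here.

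Deposited gene counts summed to between 13541951 and 18784497 per library. Replicates differed by more than counting noise in every group, so none was counted as a duplicate, and control replicate 2 at 48 h stood further from its group than the others, since the chi-square, averaged per gene, was 9.05 and 12.1 against its partners and 4.73 between those partners. The 8 measured fibroblast markers, Col1a1 and Vim among them, were plentiful, with summed levels of 6870 to 7460 CPM (counts scaled to a common library total) in the 24 h controls, 6244 to 6595 with AS1411 at 24 h, 7218 to 8536 in the 48 h controls and 4651 to 5222 with AS1411 at 48 h. Of the 8 fibroblast markers measured, 6 were called lower with AS1411 at 48 h and none was called higher, by the edgeR test described further on. Of all tested genes, 28.5% were called lower and 29.4% higher at that time. Summed macrophage markers were 5.64 to 7.70 CPM in the 24 h controls, 5.19 to 7.01 with AS1411 at 24 h, 4.15 to 4.47 in the 48 h controls and 12.6 to 13.2 with AS1411 at 48 h. Cd68, a lysosomal protein that fibroblasts also make, carried most of that sum, whereas Csf1r reached at most 10 counts and Mrc1 at most 7 counts in any library, and 7 of the 10 macrophage markers were not analysed here. The mitochondrial share of counts was 0.713% to 0.897% in the 24 h controls, 1.29% to 1.71% with AS1411 at 24 h, 0.863% to 1.22% in the 48 h controls and 1.07% to 1.19% with AS1411 at 48 h. The part of these shifts in the results below was not tested. In bulk RNA of this line, a change in the share of cells expressing a gene cannot be told apart from a change in RNA per cell.

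The members lay in a wide range of levels, with the receptors at the bottom. Levels per length were compared as CPM per kb of merged exons, using exon lengths from GENCODE M21 on GRCm38. In the 24 h controls, Irak1 was highest at 30.1 ± 0.984 CPM per kb (SD, n = 3), followed by Tbk1 at 18.8 ± 0.769 (SD, n = 3). Mavs at 13.4 ± 0.625, Myd88 at 13.2 ± 0.586 and Irf3 at 12.9 ± 1.43 CPM per kb (SD, n = 3 each) came next and did not differ from each other beyond their spread. Ticam1 stood below them at 6.93 ± 0.916 CPM per kb (SD, n = 3). Tlr4 at 2.34 ± 0.0710 and Tlr2 at 2.08 ± 0.277 CPM per kb (SD, n = 3 each) overlapped between libraries, and Tlr3 was lowest at 0.273 ± 0.103 (SD, n = 3). With AS1411 at 48 h the order of the means differed in its middle part from that in the 24 h controls. Part of this difference was also present in the 48 h controls. Myd88 at 15.3 ± 0.722 and Mavs at 14.2 ± 1.41 CPM per kb (SD, n = 2 each) overlapped with AS1411 at 48 h. In the 48 h controls, Myd88 at 13.3 ± 0.68 lay above Mavs at 11.9 ± 0.460 in every library (SD, n = 3 each). Ticam1 at 10.3 ± 1.17 and Irf3 at 10.2 ± 0.816 CPM per kb (SD, n = 2 each) also overlapped with AS1411 at 48 h. Irf3 was higher in every control library of both times, at 10.9 ± 0.493 against 7.21 ± 0.827 for Ticam1 at 48 h (SD, n = 3 each). The receptors kept their place below all adaptors and kinases in every group, with Tlr4 at 4.37 ± 0.435, Tlr2 at 4.05 ± 0.367 and Tlr3 at 0.602 ± 0.125 CPM per kb (SD, n = 2 each) with AS1411 at 48 h.

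**Figure D1:**
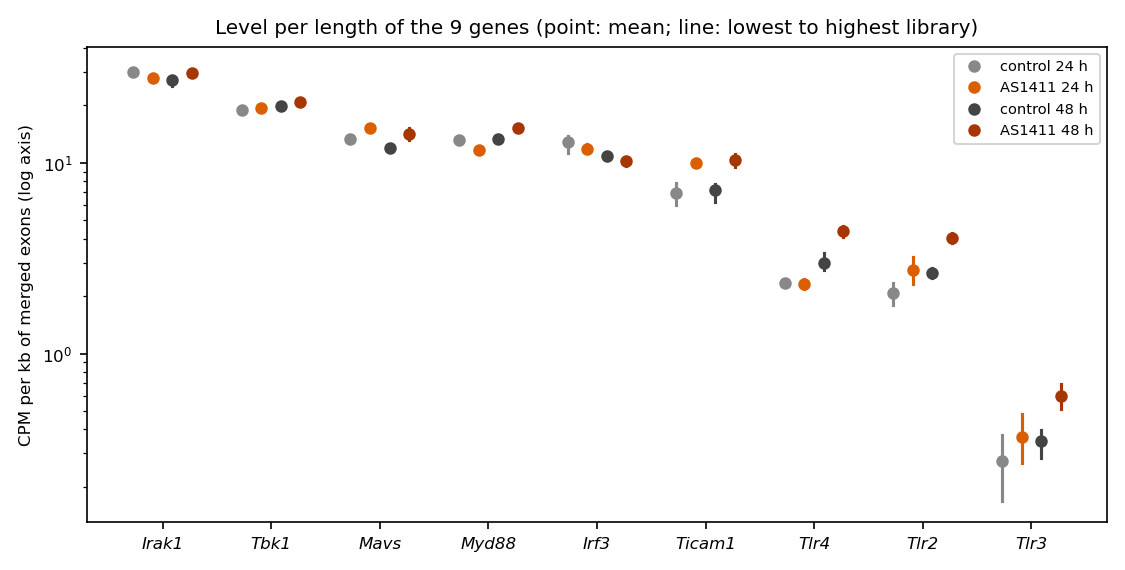
Level per length of the 9 genes in CPM per kb of merged exons, on a log axis, for each of the 4 groups. Points are group means and lines run from the lowest to the highest library, and the 3 receptors sit below the adaptors, kinases and Irf3, with Tlr3 lowest.

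With AS1411, several members were expressed at higher levels than with the control oligonucleotide, more of them at 48 h than at 24 h. At 24 h, Tlr2, Ticam1 and Mavs were higher and Myd88 was lower, and the other 5 did not pass the test (edgeR's quasi-likelihood test across all genes, Benjamini-Hochberg adjusted p under 0.05). These 3 of 9 higher and 1 of 9 lower stood against 13.1% of all tested genes called higher and 16.7% called lower. At 48 h, 6 members were higher, namely Tlr2, Tlr3, Tlr4, Myd88, Ticam1 and Mavs, and none was lower. At that time 29.4% of all tested genes were called higher and 28.5% lower. The median log2 fold change of the members was 0.04 at 24 h and 0.25 at 48 h, where the median of all tested genes was 0.0066 and 0.010. Counted by libraries alone, AS1411 and control did not overlap for 2 members in each direction at 24 h, against 23.5% of all genes higher and 26.3% lower. At 48 h, 8 members lay wholly above their controls and none wholly below, against 35.1% and 32.9% of all genes. The larger count at 48 h thus came with a larger share of called genes in the whole table. Without control replicate 2 at 48 h, the library that stood apart, 7 members were called higher at 48 h and none lower. Over all alternatives the 48 h count higher ran from 4, without AS1411 replicate 2 of 48 h or with the DESeq2 Wald test, to 8, with library-size or upper-quartile scaling.

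**Figure D2:**
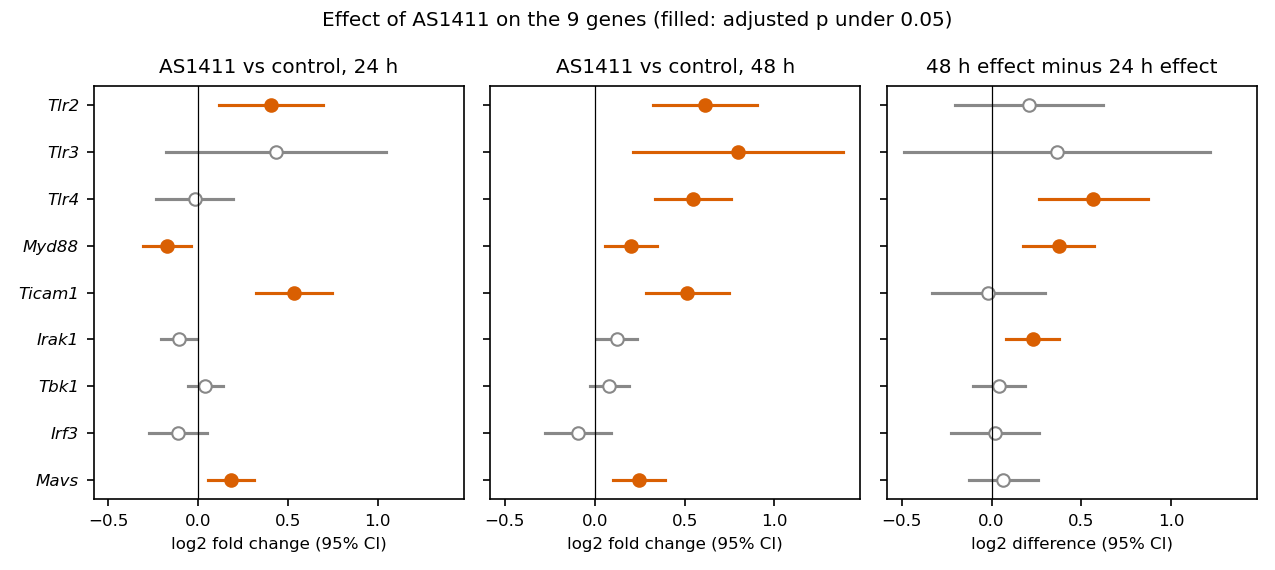
Log2 fold change of AS1411 against control at 24 h and at 48 h, and the difference between these effects, with 95% confidence intervals for each of the 9 genes. Filled points passed an adjusted p of 0.05, and at 48 h 6 genes lie to the right of 0 and pass, while Irf3 has the only value below 0.

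Tlr2, the cell-surface receptor for bacterial lipopeptides (GRCm38 3:83836272-83841767, minus strand, 3 merged exons), was higher with AS1411 at both times. The 24 h controls read 7.10, 6.31 and 5.43 CPM in replicates 1 to 3, and the AS1411 libraries read 8.21, 7.01 and 9.63. At 24 h the lowest AS1411 library lay just below the highest control, so the groups overlapped. The log2 fold change was 0.40 ± 0.138 (SE, adjusted p = 0.0337 in edgeR), equal to 1.32-fold with a 95% interval of 1.08 to 1.62. At 48 h the controls read 7.54, 7.77 and 8.48 CPM and the AS1411 libraries read 11.4 and 13.0, so both lay above every control. The 48 h log2 fold change was 0.61 ± 0.139 (SE, adjusted p = 9.69e-04 in edgeR), or 1.53-fold. The 24 h call was lost when AS1411 replicate 1 (0.42, adjusted p = 0.0738 in edgeR), AS1411 replicate 3 (0.27, 0.212), control replicate 2 (0.41, 0.0834) or control replicate 3 (0.32, 0.13) was left out, and with the DESeq2 Wald test (0.40, 0.0548), whereas the 48 h call held without any one library.

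Tlr3, the endosomal receptor for double-stranded RNA (8:45395665-45411080, minus strand, 8 merged exons), was the member with the fewest counts, at 12 to 63 per library. At 24 h, controls read 1.44, 1.95 and 0.880 CPM and the AS1411 libraries read 1.39, 1.83 and 2.53, which overlapped. The 24 h log2 fold change of 0.43 ± 0.292 (SE, adjusted p = 0.285 in edgeR) did not pass. Controls read 2.08, 1.47 and 1.90 CPM at 48 h and the AS1411 libraries read 3.59 and 2.67, with no overlap. The log2 fold change was 0.80 ± 0.279 (SE, adjusted p = 0.0198 in edgeR), which is 1.74-fold with a 95% interval of 1.16 to 2.61. It had the largest fitted change of the 9 genes at 48 h and also the widest interval. Without AS1411 replicate 1 at 48 h it was 0.55 (adjusted p = 0.232 in edgeR), and the call was lost, as it was with the DESeq2 Wald test (0.79, adjusted p = 0.0508). Of the merged exon bases of Tlr3, 7.3% also lie in exons of the antisense gene Gm45542 in the annotation, and the strand setting of the counting is not given in the sources used here.

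Tlr4, which senses bacterial lipopolysaccharide together with the proteins encoded by Ly96 and Cd14 (4:66827584-66930284, plus strand, 6 merged exons), passed the test between treatments at 48 h and not at 24 h. The 24 h controls read 13.4, 12.6 and 13.0 CPM and the AS1411 libraries read 13.6, 12.8 and 12.2. These values were interleaved, and the log2 fold change was -0.02 ± 0.102 (SE, adjusted p = 0.905 in edgeR) with a 95% interval of -0.23 to 0.19. At 48 h the controls read 18.8, 15.98 and 15.2 CPM and the AS1411 libraries read 22.6 and 26.0. Both AS1411 libraries were above every control, and the log2 fold change was 0.55 ± 0.101 (SE, adjusted p = 1.39e-04 in edgeR), or 1.46-fold. It stayed past the threshold without any one library.

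**Figure D3:**
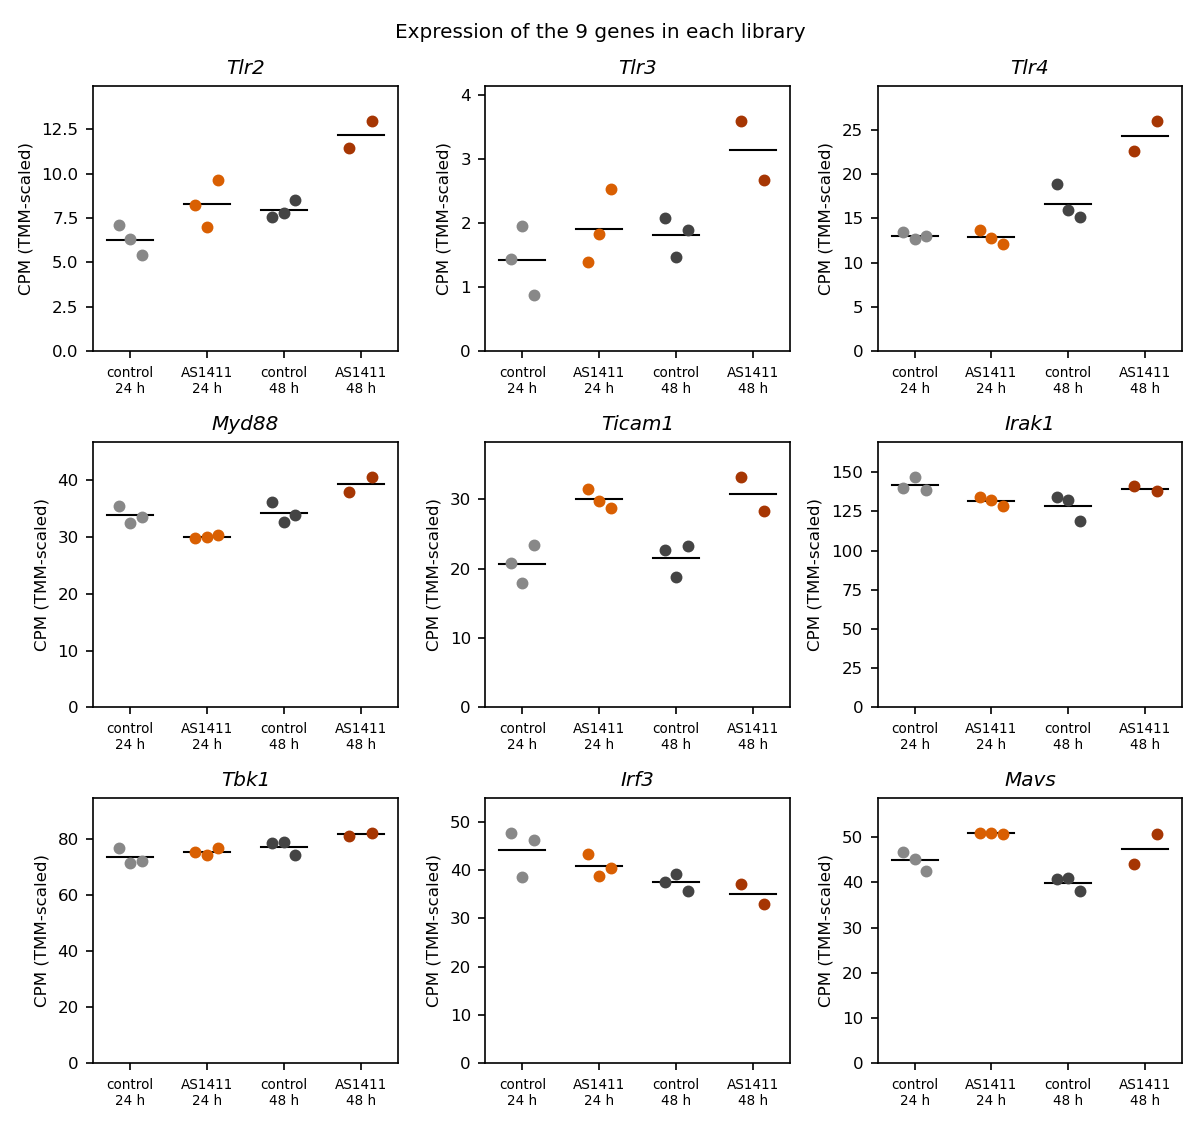
Level of each of the 9 genes in every library, in TMM-scaled CPM on axes that start at 0. Points are libraries, horizontal lines are group means, and the AS1411 libraries at 48 h lie above all 3 controls for every gene except Irf3.

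Among the adaptors, Ticam1 was higher with AS1411 at both times by about the same amount. This adaptor of TLR3 and TLR4 lies at 17:56269319-56276786 on the minus strand and has 2 merged exons. Controls read 20.9, 17.9 and 23.4 CPM at 24 h and the AS1411 libraries read 31.5, 29.8 and 28.7. At 48 h the controls read 22.7, 18.7 and 23.3 CPM and the AS1411 libraries read 33.3 and 28.3. The groups did not overlap at either time. The log2 fold change was 0.53 ± 0.101 at 24 h (SE, adjusted p = 7.67e-04 in edgeR) and 0.52 ± 0.109 at 48 h (SE, adjusted p = 6.08e-04), equal to 1.45-fold and 1.43-fold. Both calls held in all alternatives run, and the 24 h change was the largest of the 9 genes at that time.

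Myd88, the adaptor of TLR2, TLR4 and the interleukin-1 receptors (9:119335934-119341411, minus strand, 5 merged exons), was lower with AS1411 at 24 h and higher at 48 h. The 24 h controls read 35.5, 32.5 and 33.6 CPM and the AS1411 libraries read 29.8, 29.9 and 30.3. All 3 AS1411 libraries lay below all 3 controls, and the fitted log2 difference was -0.17 ± 0.0643 (SE, adjusted p = 0.0473 in edgeR). Later, at 48 h, the controls read 36.2, 32.8 and 33.9 CPM and the AS1411 libraries read 38.1 and 40.7. Both AS1411 libraries lay above every control, and the fitted log2 difference was 0.20 ± 0.0691 (SE, adjusted p = 0.019 in edgeR). The 24 h call was lost in 14 of 19 alternatives, among them leaving out any one of the 6 libraries of 24 h (-0.13 to -0.20, adjusted p = 0.0607 to 0.215 in edgeR) or either AS1411 library of 48 h (-0.17 for both, adjusted p = 0.0549 and 0.0561). The 48 h call was lost without AS1411 replicate 2 (0.14, adjusted p = 0.183 in edgeR), with the DESeq2 Wald test (0.19, adjusted p = 0.0571) and when the 48 h libraries were fitted alone (0.20, adjusted p = 0.0702). Of its merged exon bases, 11.3% are shared with Acaa1a on the opposite strand, which had at most 546 counts in a library against 410 to 667 for Myd88.

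Mavs, the mitochondrial adaptor of the RIG-I-like helicases (2:131234063-131248025, plus strand, 9 merged exons), was slightly higher with AS1411 at both times. Controls read 46.7, 45.3 and 42.6 CPM at 24 h and the AS1411 libraries read 50.9, 51.0 and 50.8. At 48 h the controls read 40.6, 41.0 and 38.2 CPM and the AS1411 libraries read 44.0 and 50.7. No AS1411 library fell within the range of its controls. The log2 fold change was 0.18 ± 0.0610 at 24 h (SE, adjusted p = 0.0315 in edgeR) and 0.25 ± 0.0685 at 48 h (SE, adjusted p = 0.00488). The 24 h call was lost without any one AS1411 library of 24 h or without control replicate 2 or 3 of 24 h (0.15 to 0.19, adjusted p = 0.0658 to 0.109 in edgeR), and with the DESeq2 Wald test (0.18, adjusted p = 0.062). The 48 h call was lost without AS1411 replicate 2, where the value was 0.13 (adjusted p = 0.174).

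Neither kinase passed the test at either time. Irak1, which acts downstream of Myd88 (X:74013914-74023918, minus strand, 10 merged exons), read 140, 147 and 139 CPM in the 24 h controls and 134, 133 and 128 with AS1411. At 48 h it read 134, 132 and 119 CPM in the controls and 141 and 138 with AS1411. The AS1411 libraries thus lay below the controls at 24 h and above them at 48 h, by -0.11 ± 0.0474 (SE, adjusted p = 0.0986 in edgeR) and 0.12 ± 0.0528 (SE, adjusted p = 0.0546) on the log2 scale. Leaving out control replicate 1 or control replicate 2 of 48 h brought the 48 h value past the threshold, at 0.15 in both cases (adjusted p = 0.0259 and 0.0147 in edgeR). Tbk1, the kinase of Irf3 (10:121546455-121586787, minus strand, 22 merged exons), read 77.0, 71.6 and 72.1 CPM in the 24 h controls and 75.6, 74.6 and 76.8 with AS1411. At 48 h it read 78.6, 79.1 and 74.5 CPM in the controls and 81.2 and 82.4 with AS1411. Its log2 fold change was 0.04 ± 0.0470 (SE, adjusted p = 0.565 in edgeR) and 0.08 ± 0.0516 (SE, adjusted p = 0.189). The 95% interval at 48 h ran from -0.03 to 0.19. When libraries were scaled by their totals alone, which moved the median of all genes at 48 h to 0.16 on the log2 scale, both kinases were called higher at 48 h, with Irak1 at 0.27 (adjusted p = 1.46e-04 in edgeR) and Tbk1 at 0.23 (adjusted p = 8.32e-04). Upper-quartile scaling, with a median of all genes of 0.061, also called both higher at 48 h, with Irak1 at 0.17 (adjusted p = 0.00863 in edgeR) and Tbk1 at 0.13 (adjusted p = 0.0341), and Irak1 passed with the filter of CPM at least 1 in 2 libraries (0.13, adjusted p = 0.0469). At 24 h Irak1 was called lower when the 24 h libraries were fitted alone (-0.10, adjusted p = 0.0206).

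Irf3, the transcription factor that Tbk1 activates (7:44997648-45002848, plus strand, 7 merged exons), did not pass the test between treatments at either time. The 24 h controls read 47.8, 38.6 and 46.3 CPM and the AS1411 libraries read 43.3, 38.9 and 40.5. At 48 h the controls read 37.5, 39.1 and 35.7 CPM and the AS1411 libraries read 37.0 and 33.1. The groups overlapped at both times, and the log2 fold change was -0.11 ± 0.0763 (SE, adjusted p = 0.291 in edgeR) and -0.09 ± 0.0872 (SE, adjusted p = 0.377). Its 95% intervals were -0.27 to 0.05 at 24 h and -0.28 to 0.09 at 48 h. The 48 h value took the other sign, 0.05, when libraries were scaled by their totals alone. Irf3 shares 2.6% of its merged exon bases with Bcl2l12 on the opposite strand. For Trex1, the cytosolic DNA exonuclease, every one of its 1147 merged exon bases (9:109057933-109059734, minus strand) also lies in exons of Atrip on the same strand in the annotation, and Atrip had at most 29 counts in a library.

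The difference between the 48 h and the 24 h effect of AS1411 was tested as an interaction, and 3 members passed in the higher direction and none in the lower. Over all tested genes 13.4% passed as higher and 14.1% as lower. Tlr4 differed by 0.57 ± 0.144 (SE, adjusted p = 0.00675 in edgeR), Myd88 by 0.37 ± 0.0944 (SE, adjusted p = 0.00649) and Irak1 by 0.23 ± 0.0710 (SE, adjusted p = 0.022). For Tlr4 the AS1411 libraries were level with the controls at 24 h and above them at 48 h, and for Myd88 and Irak1 they were below at 24 h and above at 48 h. The Tlr4 difference missed the threshold without AS1411 replicate 2 of 48 h (0.45, adjusted p = 0.0538 in edgeR), and that of Irak1 missed it without AS1411 replicate 3 of 24 h (0.21, 0.0608), AS1411 replicate 1 of 48 h (0.20, 0.111), AS1411 replicate 2 of 48 h (0.23, 0.0564), control replicate 2 of 24 h (0.20, 0.0779) or control replicate 3 of 48 h (0.17, 0.0512), and with the DESeq2 Wald test (0.22, 0.0507). The Myd88 difference held in all alternatives run. For Ticam1 the difference was -0.02 ± 0.149 (SE, adjusted p = 0.946 in edgeR), with a 95% interval of -0.33 to 0.30. Tlr2 at 0.21 ± 0.197 and Tlr3 at 0.36 ± 0.407 (SE, adjusted p = 0.465 and 0.544) did not pass either, so their 48 h effects were not shown to exceed those at 24 h.

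Some members also differed between times within a treatment. These contrasts use the same libraries as the treatment comparisons, so they are set side by side and not read as separate evidence. In the controls, Tlr4 was higher at 48 h than at 24 h by 0.35 ± 0.0991 on the log2 scale (SE, adjusted p = 0.0141 in edgeR). Irak1 was lower by -0.15 ± 0.0475 (SE, adjusted p = 0.0311) and Irf3 by -0.24 ± 0.0769 (SE, adjusted p = 0.0279). These 1 of 9 higher and 2 of 9 lower stood against 11.6% and 13.2% of all genes. With AS1411, Tlr4 was higher at 48 h by 0.92 ± 0.104 (SE, adjusted p = 9.43e-07 in edgeR), Tlr2 by 0.54 ± 0.139 (SE, adjusted p = 0.00335), Tlr3 by 0.70 ± 0.276 (SE, adjusted p = 0.0439) and Myd88 by 0.39 ± 0.0698 (SE, adjusted p = 1.5e-04), while Irf3 was lower by -0.22 ± 0.0868 (SE, adjusted p = 0.0416). These 4 of 9 higher and 1 of 9 lower stood against 24.5% and 24.6% of all genes. Tlr4 was the member called higher over time under both treatments, from 13.0 ± 0.394 to 16.7 ± 1.92 CPM in the controls (SD, n = 3 each) and from 12.9 ± 0.745 (SD, n = 3) to 24.3 ± 2.42 CPM (SD, n = 2) with AS1411. The Tlr4 rise in the controls missed the threshold without control replicate 2 of 24 h (0.34, adjusted p = 0.0532 in edgeR) or control replicate 1 of 48 h (0.26, 0.0779). In the controls, Irak1 missed it without any 1 library of 24 h or without replicate 3 of 48 h (-0.08 to -0.15, adjusted p = 0.0749 to 0.204), and Irf3 missed it without replicate 1 or 3 of either time (-0.17 to -0.24, adjusted p = 0.0586 to 0.195). With AS1411, Tlr2 missed it without AS1411 replicate 2 of 48 h (0.44, adjusted p = 0.0554). Tlr3 missed it without AS1411 replicate 1 or 2 of 24 h, AS1411 replicate 1 of 48 h or control replicate 1 of 24 h (0.45 to 0.70, adjusted p = 0.0561 to 0.357), and Irf3 missed it without AS1411 replicate 1 or 3 of 24 h, AS1411 replicate 2 of 48 h or control replicate 3 of 24 h (-0.15 to -0.23, adjusted p = 0.0523 to 0.279). The AS1411 differences of Tlr4 and Myd88 between times held in all alternatives run.

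The genes that work with these members were taken from 9 lists by role, which together named 120 genes, 86 of them tested. At 24 h, 15 were higher with AS1411 and 7 lower, and at 48 h 44 were higher and 12 lower. Their median log2 fold change was 0.03 at 24 h and 0.23 at 48 h, beside 0.0066 and 0.010 for all tested genes. The shares of all genes called, given above, are the background for these counts, and nothing particular to any list is read from them.

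Partners of the receptors moved in both directions. Of the other toll-like receptors, Tlr1, the partner of TLR2 for triacylated lipopeptides, was higher at 48 h by 0.93 ± 0.298 (SE, adjusted p = 0.0126 in edgeR), and Tlr6 did not pass at 0.37 ± 0.240 (SE, adjusted p = 0.191). Tlr1 rested on 11 to 30 counts per library at 48 h, and its call was lost without AS1411 replicate 2 (0.80). It was also lost with the DESeq2 Wald test (0.93, adjusted p = 0.0761). Tlr7 had at most 8 counts in a library and was not tested. Cd14, the coreceptor that hands lipopolysaccharide to TLR4, read 5.12, 4.90 and 4.74 CPM in the 48 h controls and 8.90 and 9.58 with AS1411, which made a log2 difference of 0.91 ± 0.135 (SE, adjusted p = 1.38e-05 in edgeR). Both AS1411 libraries stood well above the controls, whereas at 24 h Cd14 was at 0.03 ± 0.127 (SE, adjusted p = 0.9). Cnpy3, a chaperone for folding toll-like receptors, was lower at 48 h by -0.48 ± 0.0612 (SE, adjusted p = 2.06e-06 in edgeR), and Hsp90b1, the endoplasmic reticulum chaperone gp96 that works with it, was lower at both times by -0.23 ± 0.0444 and -0.38 ± 0.050 (SE, adjusted p = 7.18e-04 and 3.55e-06). Cnpy4 was higher at both times by 0.21 ± 0.0540 and 0.34 ± 0.0602 (SE, adjusted p = 0.00639 and 9.52e-05). Of the 6 partners tested, 1 was higher and 1 lower at 24 h, and 3 were higher and 2 lower at 48 h.

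Of 23 other signalling adaptors and kinases, 6 were higher and 1 lower at 24 h, and 14 were higher and 1 lower at 48 h, with a median log2 fold change of 0.08 and 0.23. Ikbke, the kinase closest to Tbk1, read 9.02, 9.94 and 10.7 CPM in the 24 h controls and 14.5, 13.7 and 13.4 with AS1411. At 48 h it read 10.8, 11.4 and 11.6 CPM in the controls and 21.0 and 18.2 with AS1411. The AS1411 libraries were higher throughout, by 0.49 ± 0.100 at 24 h and 0.80 ± 0.103 at 48 h (SE, adjusted p = 0.00129 and 2.47e-06 in edgeR), whereas Tbk1 passed at neither time. IkB kinase subunits were also higher, Ikbkg (NEMO) at 0.57 ± 0.0684 at 48 h (SE, adjusted p = 1.02e-06) and Ikbkb at 0.24 ± 0.0431 at 24 h (SE, adjusted p = 3.68e-04). Peli2, a ubiquitin ligase that acts on IRAK1, was lower at 48 h by -1.21 ± 0.370 (SE, adjusted p = 0.00909 in edgeR), a call lost without AS1411 replicate 2 (-0.86). Peli2 rested on 7 to 36 counts per library over all groups, and the 2 AS1411 libraries of 48 h read 0.456 and 0.856 CPM. Traf3, a ubiquitin ligase of the interferon branch, was lower at 24 h by -0.17 ± 0.0523 (SE, adjusted p = 0.0227), a call lost without replicate 2 or 3 of either treatment at 24 h (-0.13 to -0.17, adjusted p = 0.0599 to 0.131). The Traf3 call was also lost with library-size scaling (-0.09, adjusted p = 0.202 in edgeR).

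Sensors of RNA and DNA in the cytosol were read as 2 lists. Of 10 RNA sensors and their cofactors, 2 were higher at 24 h and 5 at 48 h, with none lower. Eif2ak2, the RNA-activated kinase PKR, was higher at both times, by 0.28 ± 0.0602 and 0.53 ± 0.0620 (SE, adjusted p = 0.00195 and 7.97e-07 in edgeR), and Zc3hav1, the antiviral protein ZAP, was higher at 48 h by 0.29 ± 0.0534 (SE, adjusted p = 1.42e-04). Of 11 DNA sensors and their cofactors, 1 was higher and 2 lower at 24 h, and 4 were higher and 2 lower at 48 h. Tmem173, which encodes STING, read 18.1, 16.05 and 16.1 CPM in the 24 h controls and 19.95, 22.2 and 22.4 with AS1411. At 48 h it read 22.9, 19.7 and 22.4 CPM in the controls and 47.6 and 42.3 with AS1411. Every AS1411 library was above its controls, with log2 fold changes of 0.36 ± 0.0881 and 1.06 ± 0.0867 (SE, adjusted p = 0.0049 and 9.1e-09 in edgeR). Cgas, the DNA sensor upstream of STING, did not pass at 0.09 ± 0.0770 and 0.15 ± 0.0849 (SE, adjusted p = 0.403 and 0.144). Cgas lies outside the naming rule and was chosen after its values were seen. Zdhhc1, reported to act with STING, was higher at 48 h by 0.61 ± 0.129 (SE, adjusted p = 4.93e-04 in edgeR), and Polr3f, an RNA polymerase III subunit, was lower by -0.36 ± 0.0624 (SE, adjusted p = 6.4e-05). Ifi204, a DNA-binding protein of the interferon-inducible p200 family, was lower by -0.88 ± 0.118 at 24 h and -0.87 ± 0.128 at 48 h (SE, adjusted p = 2.53e-05 and 1.18e-05), although reads of this family may be split among near-identical copies.

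Nucleases and editors that remove or mark nucleic acids included 4 higher and 1 lower of 13 at 24 h, and 5 higher and 2 lower at 48 h. Dnase1l1, a DNase I relative, was higher at 48 h by 1.18 ± 0.122 (SE, adjusted p = 1.68e-07 in edgeR), and Samhd1, which cleaves deoxynucleotide triphosphates, by 0.20 ± 0.0397 (SE, adjusted p = 2.27e-04). Rnaseh2b, a subunit of the nuclease that removes RNA from DNA, was lower at both times by -0.19 ± 0.0598 and -0.39 ± 0.0673 (SE, adjusted p = 0.0234 and 7.56e-05), and its 24 h call was lost without AS1411 replicate 1 or 2 or control replicate 2 or 3 of 24 h (-0.12 to -0.19, adjusted p = 0.0642 to 0.167). That 24 h call was also lost with library-size scaling (-0.11, adjusted p = 0.188 in edgeR) and upper-quartile scaling (-0.16, adjusted p = 0.0526). Ttc37, a subunit of the RNA-degrading SKI complex, was lower at 48 h by -0.38 ± 0.0571 (SE, adjusted p = 1.35e-05). Slc29a3, a lysosomal nucleoside transporter, was higher at 24 h by 0.24 ± 0.0686 (SE, adjusted p = 0.0114), a call lost without AS1411 replicate 1 of 24 h (0.21, adjusted p = 0.0597).

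Interferon regulatory factors other than Irf3 were higher at 48 h in 4 of 5 tested genes and at 24 h in 1 of 5, with none lower. Irf9, the DNA-binding subunit of the interferon-activated complex ISGF3, was higher by 0.42 ± 0.101 at 24 h and 0.98 ± 0.104 at 48 h (SE, adjusted p = 0.00396 and 2.36e-07 in edgeR). Irf5, which works downstream of Myd88, read 0.761, 0.612 and 0.781 CPM in the 48 h controls and 3.37 and 2.74 with AS1411. Both AS1411 libraries were clearly higher, by 2.08 ± 0.271 (SE, adjusted p = 2.88e-06 in edgeR), on 42 to 59 counts against 10 to 14.

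Known targets of Irf3 and NF-kB went in both directions at 48 h. Of 11 tested, 7 were higher and 3 lower at 48 h, and 1 was lower and none higher at 24 h, where the median log2 fold change was -8.93e-04 compared with 1.28 at 48 h. Ccl2, the monocyte chemokine, read 20.8, 17.1 and 17.9 CPM in the 24 h controls and 20.5, 18.3 and 17.2 with AS1411. At 48 h it read 8.03, 8.69 and 9.71 CPM in the controls and 49.9 and 53.9 with AS1411. The groups were interleaved at 24 h and far apart at 48 h, with a log2 fold change of 2.55 ± 0.102 at 48 h (SE, adjusted p = 1.14e-12 in edgeR). Nfkbia, the inhibitor that NF-kB itself induces, was lower at 24 h by -0.19 ± 0.0601 (SE, adjusted p = 0.0224) and higher at 48 h by 1.28 ± 0.0638 (SE, adjusted p = 1.71e-11 in edgeR). The 24 h call of Nfkbia was lost without AS1411 replicate 2 or 3 or control replicate 1 or 3 of 24 h (-0.15 to -0.19, adjusted p = 0.0681 to 0.15). It was also lost with library-size scaling (-0.11, adjusted p = 0.138 in edgeR). The interferon-induced RNA-binding proteins Ifit1 and Ifit2 were lower at 48 h by -1.44 ± 0.327 and -0.36 ± 0.0558 (SE, adjusted p = 0.00243 and 2.05e-05), with reads that may be shared among Ifit copies. From 24 h to 48 h, mean Ifit1 went from 3.39 to 8.18 CPM in the controls and from 3.31 to 3.01 with AS1411. The 48 h controls of Ifit1 ranged from 5.75 to 12.0 CPM. Mean Ifit2 went from 111 to 117 CPM in the controls and from 112 to 91.3 with AS1411. Cxcl10, an interferon- and NF-kB-induced chemokine, was higher by 1.37 ± 0.114 at 48 h (SE, adjusted p = 1.86e-08), Tnfaip3, which restrains NF-kB signalling, was higher by 1.69 ± 0.143 (SE, adjusted p = 1.08e-05), and the interferon-induced Isg15 did not pass at -0.39 ± 0.222 (SE, adjusted p = 0.15). These 3 genes lie outside the naming rule and were chosen after their values were seen. From 24 h to 48 h, mean Tnfaip3 went from 102 to 44.0 CPM in the controls and from 117 to 143 with AS1411. Ifnb1 and Tnf were not analysed here, and Il6 was below the filter.

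Proteins reported as ligands of TLR2 or TLR4 released by cells or matrix were also read. Of 5 tested, 1 was lower at 24 h, and 1 was higher and 2 lower at 48 h. Hmgb1, a chromatin protein that acts on these receptors once released, read 65.3, 67.9 and 65.2 CPM in the 24 h controls and 51.7, 51.5 and 52.6 with AS1411. At 48 h it read 67.3, 65.5 and 59.0 CPM in the controls and 33.2 and 32.9 with AS1411. It was lower in every AS1411 library, by -0.35 ± 0.0544 and -0.95 ± 0.0643 (SE, adjusted p = 1.25e-04 and 7.27e-10 in edgeR). Tnc, a matrix glycoprotein reported to act on TLR4, was higher at 48 h by 0.85 ± 0.151 (SE, adjusted p = 4.23e-04), and Bgn, a matrix proteoglycan, was lower by -0.38 ± 0.142 (SE, adjusted p = 0.049), which missed the threshold in 13 of 19 alternatives.

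**Figure D4:**
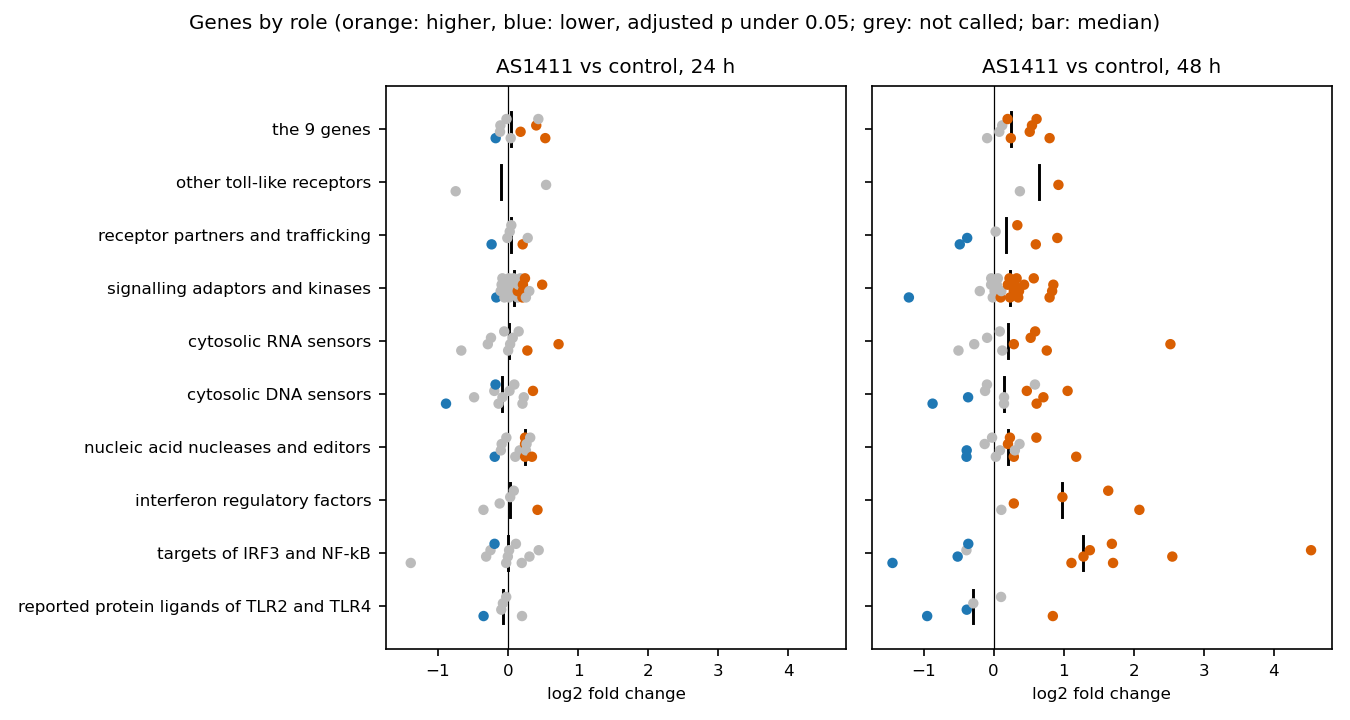
Log2 fold change of AS1411 against control at 24 h and 48 h for the 9 genes and for the tested genes of each of the 9 lists by role, on a shared axis. Each point is a gene, bars are list medians, and the widest spread at 48 h is among the targets of Irf3 and NF-kB, where 7 genes are higher and 3 lower.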

How the data were processed

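Total RNA of NIH-3T3 cells was sequenced after polyA selection, and the authors deposited a table of raw gene counts for 11 libraries in 4 groups. Per the submitters' processing notes, bcl2fastq, cutadapt, STAR, HTSeq and DESeq2 were used on GRCm38; the sources used here do not give versions, annotation, strand setting or the handling of multiply mapped reads. Each gene in the deposited counts had a total of at least 8, and 1 member had no row. The deposited normalized table was not used. Totals of 13541951 to 18784497 counts per library set the precision, which is lowest for Tlr3.

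Groups came from the titles. Counts of 13040 genes passing filterByExpr were scaled by TMM and fitted with edgeR 4.0.16 (R 4.3.3, limma 3.58.1) with robust quasi-likelihood and 1 coefficient per group over all libraries. This left 7 residual degrees of freedom, and p-values were Benjamini-Hochberg adjusted over all 13040 genes, with a threshold of 0.05. SEs were taken as the log2 fold change over the root of F, and CPM values are TMM-scaled. Alternatives were other scalings, filters, fits, DESeq2 1.42.0 and leaving out each library. Deviations of same-numbered replicates correlated at -0.0342, 0.00155 and -0.0455 at 24 h and at 0.123 and 0.208 at 48 h. Differently numbered pairs ran from -0.0338 to 0.0641 at 24 h and from -0.208 to 0.121 at 48 h. With 2 AS1411 libraries at 48 h, their deviations mirror each other, so each control gave values of opposite sign and equal size. Since not every same-numbered pair exceeded 0.1, numbers were not treated as pairs.

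The members and lists were chosen with earlier results of these data known. All members were named, and from each list the 2 genes of smallest adjusted p per direction at 48 h and the 1 per direction at 24 h. Identifiers were matched to symbols for 14967 of 15022 genes; exons came from GENCODE M21 and promoters from RefSeq GRCm38.p6.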

Additional observations from a re-analysis of the deposited data

Results flagged for a closer look

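The effect of AS1411 differed between 48 h and 24 h for 3 of the 9 genes by the interaction term of the edgeR fit over all 11 libraries. For Tlr4 the 48 h log2 fold change exceeded that at 24 h by 0.567 (adjusted p = 0.00675), with effects of -0.02 at 24 h and 0.55 at 48 h. For Myd88 the difference was 0.374 (adjusted p = 0.00649), with effects of -0.17 and 0.20, and for Irak1 it was 0.23 (adjusted p = 0.022), with effects of -0.11 and 0.12. Both AS1411 libraries of 48 h were above all 3 of their controls for each of these genes. Among all genes tested, 13.4% had a difference called in this direction.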

How the results depend on the processing

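Of 21 member results past the threshold, 7 kept their call in every alternative run, namely Ticam1 at 24 h and 48 h, Tlr2 and Tlr4 at 48 h, the Myd88 interaction, and the AS1411 time differences of Tlr4 and Myd88. Over 45 member results and their alternatives, 738 of 846 values kept direction and side of the threshold, 68 lost the call, 16 gained one and 24 changed sign. The 24 h count of members higher was 3, 1 with the DESeq2 Wald test and 1 to 3 leaving out 1 library. The 24 h count lower was 1, and 0 with library-size or upper-quartile scaling, no filter, the CPM filter, DESeq2 or the replicate block, 2 with only the libraries compared, and 0 to 1 leaving out 1 library. The 48 h count higher was 6, and 4 to 8 over all alternatives. The interaction count higher was 3, and 1 to 3 leaving out 1 library. In the controls over time the count higher was 1, and 0 to 1 leaving out 1 library, and the count lower was 2, with 0 under library-size scaling and with only the libraries compared, 1 with DESeq2 and 0 to 3 leaving out 1 library. With AS1411 over time the count lower was 1, and 0 with library-size or upper-quartile scaling, the CPM filter or DESeq2, and 0 to 1 leaving out 1 library. The cause of these changes was not tested.

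None of the values that changed sign passed the threshold. Library-size scaling turned Tlr4 at 24 h to 0.0587, Irf3 at 48 h to 0.054 and the Ticam1 interaction to 0.0488, and upper-quartile scaling gave 0.00758 for Tlr4 at 24 h and 0.0055 for the Ticam1 interaction. Leaving out 1 library, values ran from -0.0647 to 0.0232 for Tlr4 at 24 h, and for interactions from -0.157 to 0.0759 for Ticam1, -0.00303 to 0.0572 for Tbk1, -0.0811 to 0.103 for Irf3 and -0.0537 to 0.151 for Mavs. Over time they ran from -0.0224 to 0.0638 for Myd88 and -0.026 to 0.163 for Ticam1 in the controls, and from -0.0899 to 0.143 for Ticam1 with AS1411. With library-size scaling the median over all genes was 0.0851 at 24 h and 0.156 at 48 h, and the split of higher to lower calls went from 1702 and 2176 to 2884 and 1201 at 24 h, from 3835 and 3713 to 5428 and 2372 at 48 h, from 1749 and 1845 to 2305 and 1192 for the interaction, from 1513 and 1723 to 1928 and 1349 in the controls over time, and from 3192 and 3206 to 4337 and 2050 with AS1411 over time.

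With replicate number as a block, the 24 h call of Myd88 was lost (-0.174, adjusted p = 0.0589), as was that of Tlr3 with AS1411 over time (0.731, adjusted p = 0.0565), and the Ticam1 interaction changed sign to 0.014. The block moved the genes called from 3878 to 3963 at 24 h and from 7548 to 7439 at 48 h. With 2 AS1411 libraries at 48 h and 24 to 63 counts per library at that time, the 48 h value of Tlr3 had the widest interval of the members. Where 1 of the 2 AS1411 libraries of 48 h is left out, the other is assumed to vary like the rest.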
